A study of Rattus norvegicus with 2 samples.

Results

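Cell division genes were followed across the leukocytes of infarcted rat hearts. The set is a fixed list of 35 gene symbols whose products copy the genome or pull the copies apart, and 34 of them were found among the 26976 symbols of the count matrix. The level of the remaining symbol, Ccnb2, was not analysed here. The list is fixed by name, and it was chosen with earlier results of these data known. By role, 13 of the measured members act in S phase, 16 act in mitosis, and the remaining members (Mki67, Top2a, Cdk1, Ccna2 and Stmn1) span both phases or the whole cycle.

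A dividing cell first licenses its replication origins by loading the MCM helicase, then copies its DNA in S phase with polymerases that slide along the PCNA clamp on nucleotides supplied by ribonucleotide reductase and thymidylate synthase. Transcripts of these genes are switched on by E2F factors at the start of S phase. The kinases, kinesins, kinetochore proteins and checkpoint proteins of mitosis are transcribed later, in G2 and M, under the DREAM and B-Myb-FOXM1 complexes, whose target promoters carry CHR elements and CCAAT boxes. In leukocytes, division is a property of immature lymphocytes, activated T and NK cells and some tissue macrophages, whereas circulating neutrophils and monocytes are mostly post-mitotic.

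The study sequenced RNA of single CD45-positive cells, sorted by flow cytometry from the left ventricles of wild-type (wt) rats 7 days after surgery. CD45 is the surface protein that marks leukocytes. There were 2 groups with 1 sample each, MI (myocardial infarction) and MI+PUR-hAESC (infarction with a polyurethane patch, PUR, that carried human amniotic epithelial stem cells, hAESC), so every animal had an infarct and neither group is an unoperated control. The tissue included the infarcted and neighbouring regions, and the age, sex, strain and number of animals behind each sample were not given in the sources used here. Droplets and barcoded beads of the 10x Genomics Single Cell 3′ v2 kit gave unique molecular identifiers (UMIs), each of which stands for 1 captured transcript.

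The matrix holds 2 libraries, told apart by the number at the end of each cell barcode, and no source used here ties either number to a group. The libraries are therefore called library 1 and library 2, no value below is an effect of treatment, and no test between libraries was possible. Library 1 held 14283 barcodes with 72506643 UMIs and library 2 held 15666 barcodes with 82802439 UMIs. After removal of low-quality cells and called doublets, 13334 and 14434 cells were kept. The libraries shared 71 barcode sequences, and leaving these out moved none of the results recomputed without them beyond its interval or count limit. Within a gene, levels are compared across cell types, not between genes, since gene lengths were not used. They are given as CPM, the UMIs of a gene over all UMIs of the cell type, scaled to a common total, with exact Poisson 95% intervals, and shares of cells with exact (Clopper-Pearson) binomial 95% intervals. Both intervals cover counting error only, not the spread between animals, and where 2 values stand together the value of library 1 comes first. A level of 0 allows up to 3 UMIs, which is 1.36 and 0.683 CPM in B cells, 2.23 and 1.18 CPM in non-classical monocytes and 0.302 CPM in neutrophils of library 1.

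Cells were gated on lineage markers, none of which is a cell division gene, and the names below mean cells that resemble the named type by those markers. Cytotoxic T cells passed the T gate (4 or more of 8 T markers such as Cd3e and Lck) and also carried 3 or more NK markers such as Nkg7 and Gzma, and other T cells passed the T gate alone. NK cells carried 3 or more of 8 NK markers with fewer than 4 T markers, and B cells 3 or more of 7 markers such as Cd79a and Pax5. Macrophages carried 4 or more of 8 markers such as C1qa and Mrc1, neutrophils 4 or more of 8 such as Csf3r and Mmp8, and classical monocytes 2 or more of 4 such as Vcan. Non-classical monocytes carried 3 or more of 5 markers with Adgre4 among them, conventional dendritic cells 2 or more of 8 such as Flt3, and endothelial-gated cells 3 or more of 5 such as Cdh5. Rag1-positive cells carried 2 or more of the 5 immature lymphocyte genes Rag1, Rag2, Dntt, Ptcra and Arpp21. Rag1 encodes a subunit of the recombinase that assembles antigen receptor genes. Library 2 held 851 Rag1-positive cells and library 1 held 0 of 13334 cells, which allows a share of up to 0.0225%. The Rag1-positive cells carried a median of 5 of 8 T markers and 0 of the B, NK, macrophage and monocyte markers, with Rag1 at 1022 CPM, and 126 of the 851 had no UMI of Rag1 itself. A gate is a cut through a range: 240 of the 851 cells sat at the minimum of 2 markers, and 158 ungated cells of library 2 fell 1 marker short. The leukocyte marker Ptprc (CD45) reached between 521 and 2089.7 CPM in every gated leukocyte type but only 1.18 and 26.5 CPM in the 90 and 36 endothelial-gated cells. The endothelial-gated cells thus lack the label of the sort at the RNA level. Their values are given as those of cells behind the CD45 gate.

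The promoters of a few members are shown here because the list divides into genes of S phase and of mitosis, and the E2F letters were spread unevenly over these groups. Sequences are from RefSeq on the rat assembly GRCr8, cover the 250 bases before the annotated start, and run 5′ to 3′ on the strand of the gene. RefSeq promoters were matched for 28 of the 35 listed symbols. Hist1h1b was matched through its synonym H1f5. Capitals mark an E2F element (the letters TTCCCGC, or the variant TTGGCGC, or the variant TTGCCGC, or the variant TTCGCGC), a CHR element (TTTGAA, or the variant TTCGAA) or a CCAAT box (CCAAT), each on either strand. Mcm6 (chr13:42404353-42404602, minus strand) and Mcm3 (chr9:30733747-30733996, minus strand) encode helicase subunits, and Mcm3 is the helicase subunit that was highest in B cells. Pcna (chr3:139955821-139956070, minus strand) is the member whose level varied least over the leukocyte types. Mki67 (chr1:199952594-199952843, minus strand), Cdc20 (chr5:137255800-137256049, minus strand) and Cdca8 (chr5:142483200-142483449, minus strand) stand for the spanning and mitosis members.
Mcm6: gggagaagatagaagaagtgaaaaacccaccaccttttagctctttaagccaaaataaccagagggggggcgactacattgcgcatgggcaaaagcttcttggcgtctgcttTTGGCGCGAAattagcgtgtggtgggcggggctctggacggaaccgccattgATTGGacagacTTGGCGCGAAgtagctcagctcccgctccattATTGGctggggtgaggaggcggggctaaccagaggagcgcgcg
Mcm3: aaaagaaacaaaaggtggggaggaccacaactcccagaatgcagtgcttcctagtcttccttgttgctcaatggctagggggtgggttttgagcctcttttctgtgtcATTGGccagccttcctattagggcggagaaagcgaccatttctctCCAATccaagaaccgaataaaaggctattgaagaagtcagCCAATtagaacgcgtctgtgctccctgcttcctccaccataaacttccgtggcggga
Pcna: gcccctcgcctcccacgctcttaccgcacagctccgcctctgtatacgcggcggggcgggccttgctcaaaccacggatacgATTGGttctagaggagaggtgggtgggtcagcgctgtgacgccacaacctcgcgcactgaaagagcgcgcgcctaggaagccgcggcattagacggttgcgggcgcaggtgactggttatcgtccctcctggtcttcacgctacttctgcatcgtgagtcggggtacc
Mki67: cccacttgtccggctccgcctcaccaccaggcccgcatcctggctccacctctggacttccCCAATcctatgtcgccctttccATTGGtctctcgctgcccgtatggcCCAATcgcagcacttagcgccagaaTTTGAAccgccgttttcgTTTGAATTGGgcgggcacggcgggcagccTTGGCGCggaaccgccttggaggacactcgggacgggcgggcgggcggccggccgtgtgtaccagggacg
Cdc20: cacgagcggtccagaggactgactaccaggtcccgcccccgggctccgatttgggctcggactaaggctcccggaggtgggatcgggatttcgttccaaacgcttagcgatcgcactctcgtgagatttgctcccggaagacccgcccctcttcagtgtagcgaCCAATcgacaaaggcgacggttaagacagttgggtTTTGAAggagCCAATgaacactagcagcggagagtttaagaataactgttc
Cdca8: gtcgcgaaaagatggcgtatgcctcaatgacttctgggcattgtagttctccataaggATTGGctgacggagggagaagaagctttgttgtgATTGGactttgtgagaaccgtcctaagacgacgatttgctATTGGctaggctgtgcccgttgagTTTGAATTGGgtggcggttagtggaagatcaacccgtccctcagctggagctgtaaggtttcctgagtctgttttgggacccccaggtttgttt
The E2F letters overlap one another in Mcm6, where each run of TTGGCGCGAA holds the element on both strands, and in Mki67 and Cdca8 a CHR element runs into a CCAAT box read on the other strand. E2F letters stood in 7 of 10 S-phase promoters, in 3 of 4 spanning promoters and in 1 of 14 mitosis promoters, against 7.61% of 33360 different RefSeq promoter windows of the same length. That 1 mitosis promoter belongs to Ccnb2. CHR letters stood in 4 of 10 S-phase, 3 of 4 spanning and 6 of 14 mitosis promoters, against 17.3% of all windows. CCAAT boxes stood in 8 of 10, 4 of 4 and 11 of 14, against 34.03%, and 2 or more boxes in 6 of 10, 3 of 4 and 7 of 14, against 9.41%. A match is a description of letters and not a site that a factor was seen to bind.

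Summed over the 34 measured members, Rag1-positive cells carried 7815 CPM of cell division transcripts (95% interval 7709 to 7922). Endothelial-gated cells carried 3124 and 2285 CPM and cytotoxic T cells 1823 and 2451 CPM, with overlapping intervals in library 2. Other T cells carried 1129 and 1099 CPM and NK cells 1072 and 1242 CPM. Among myeloid cells, macrophages carried 783 and 1053 CPM, non-classical monocytes 732 and 557 CPM, classical monocytes 500.4 and 667 CPM, and neutrophils 381 and 419.6 CPM. B cells carried 791 and 875 CPM. Conventional dendritic cells, of which there were only 68 and 42, carried 1072 and 506 CPM. Cytotoxic T cells thus stood above all leukocyte types but the Rag1-positive cells in both libraries, among types of 30 cells or more. In library 2, Rag1-positive cells held the highest level of 31 of 34 members, against 22.7% of the 8636 genes that reached 20 CPM in some type of that library. The exceptions were Mcm3, highest in B cells, Aurka, highest in non-classical monocytes, and Cdk1, highest in endothelial-gated cells. For Aurka and Cdk1 the interval of the highest type overlapped that of Rag1-positive cells. In library 1, which held no Rag1-positive cells, 20 of 32 members at 20 CPM or more were highest in endothelial-gated cells, against 27.1% of 8378 genes.

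**Figure D1:**
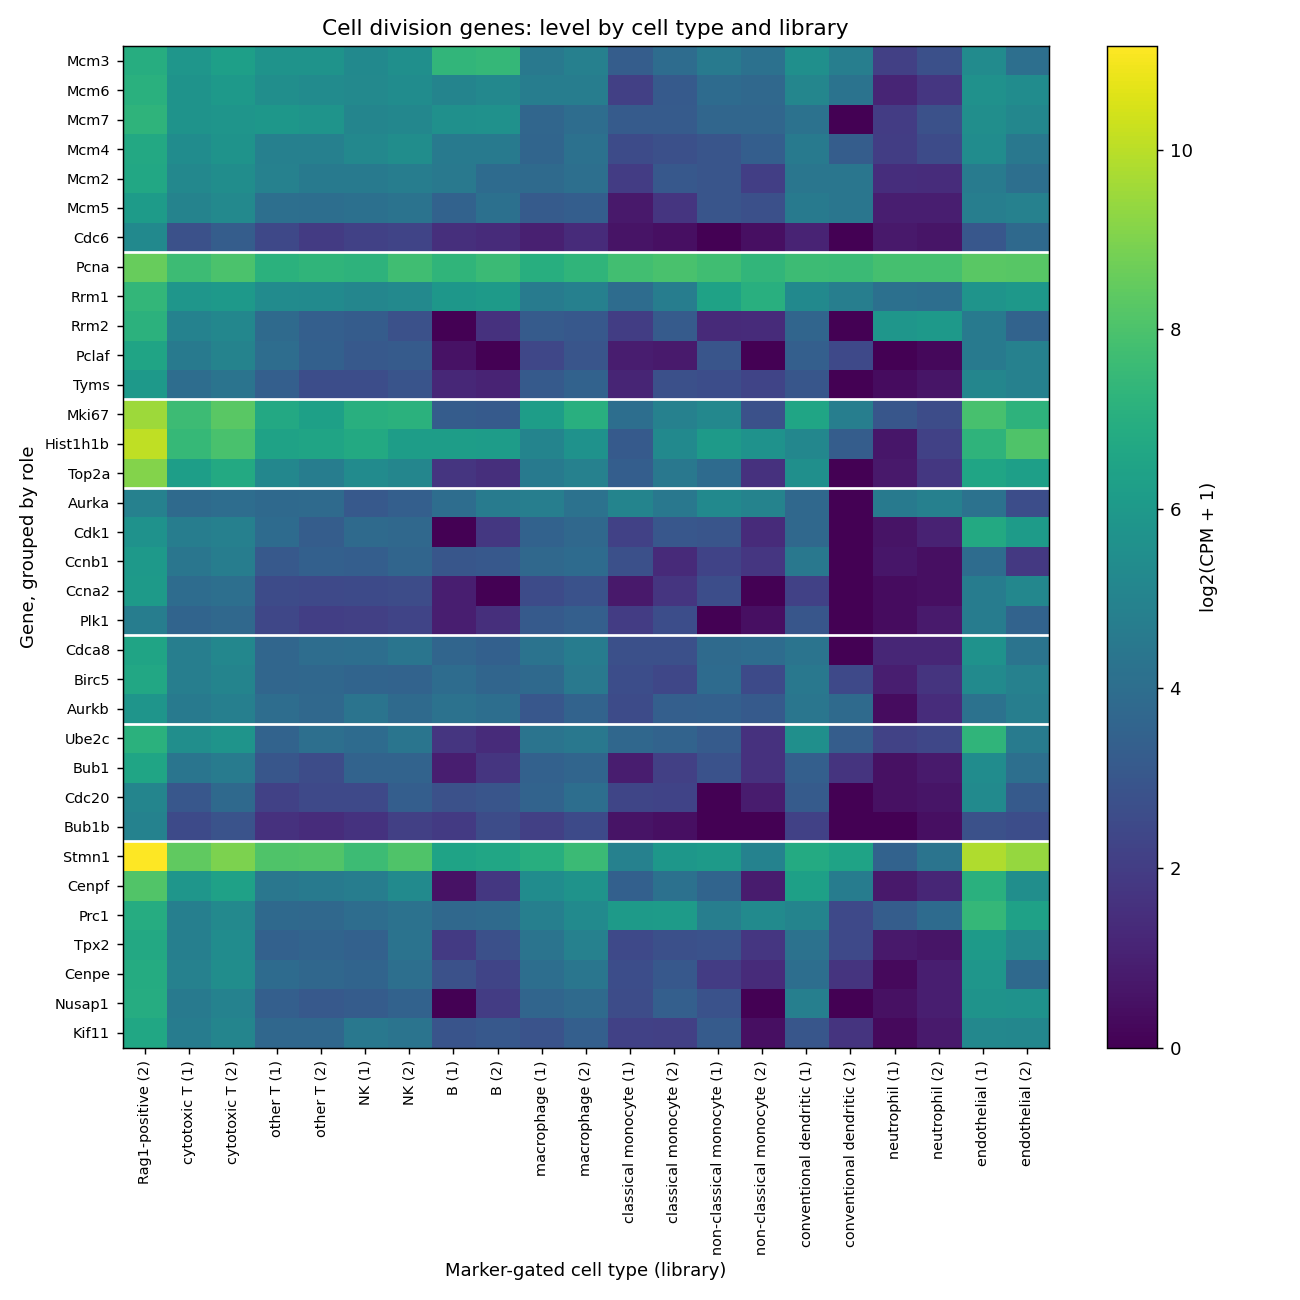
Level of each measured member, as log2(CPM + 1) in color, with genes in rows grouped by role and gated cell types in columns, the library in brackets. Rag1-positive cells hold the highest value of library 2 for 31 of 34 members, whereas Pcna is bright in every column and Mcm3 is brightest in the 2 columns of B cells.

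The first role is origin licensing. Mcm2 to Mcm7 form the replicative helicase, and Cdc6 loads it. Mcm6 stood at 133 CPM in Rag1-positive cells (95% interval 119.8 to 148), 52.6 and 64.0 in cytotoxic T cells, 44.2 and 40.3 in other T cells, 37.0 and 41.7 in NK cells and 31.3 and 35.5 in B cells. Its myeloid levels were 25.1 and 25.4 CPM in macrophages, 14.1 and 12.6 in non-classical monocytes, 3.29 and 7.89 in classical monocytes and 1.21 and 2.36 in neutrophils. Mcm6 thus ranked Rag1-positive cells first, then T, NK, B, macrophage, monocyte and neutrophil, and the intervals of other T and NK cells overlapped in both libraries. Mcm7 differed in that B cells stood above NK cells, with 153 CPM in Rag1-positive cells, 52.6 and 55.9 in cytotoxic T, 58.4 and 54.3 in other T, 32.7 and 34.7 in NK and 47.2 and 49.2 in B cells. It fell away in myeloid cells, with 11.9 and 15.01 CPM in macrophages, 11.9 and 11.8 in non-classical monocytes, 8.31 and 8.27 in classical monocytes and 2.92 and 5.81 in neutrophils. Mcm4 stood at 105 CPM in Rag1-positive, 41.6 and 51.3 in cytotoxic T, 28.4 and 27.8 in other T, 35.8 and 43.7 in NK and 22.7 and 22.3 in B cells. For Mcm4, NK cells lay above other T cells in both libraries, with overlapping intervals in library 1, the reverse of Mcm7. Macrophages held 11.4 and 16.7 CPM of Mcm4, non-classical monocytes 6.70 and 9.05, classical monocytes 4.85 and 5.64 and neutrophils 3.02 and 4.90.

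Mcm3 departed from the other helicase subunits. B cells carried it at 161 and 170.3 CPM (95% intervals 145 to 179 and 158 to 183), above Rag1-positive cells at 121 CPM (108 to 135), with no overlap of the intervals in library 2. Cytotoxic T cells held 57.4 and 76.8 CPM, other T cells 51.8 and 52.0, NK cells 38.2 and 45.8, macrophages 21.8 and 27.6, non-classical monocytes 23.1 and 16.9, classical monocytes 8.65 and 14.3 and neutrophils 3.33 and 5.63. After thinning, 21.5% and 21.0% of B cells held a UMI of Mcm3 at 1500 UMIs a cell. The next subunit in B cells was Mcm7, at 47.2 and 49.2 CPM. The remaining members of the role, Mcm2, Mcm5 and Cdc6, stood at 104, 68.2 and 37.7 CPM in Rag1-positive cells. In the other leukocyte types they ranged from 1.63 to 43.5, from 0.692 to 36.6 and from 0 to 8.64 CPM. Endothelial-gated cells held between 7.09 CPM (Cdc6) and 49.6 CPM (Mcm6) of the members of this role.

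The second role is replication and nucleotide supply. Pcna encodes the sliding clamp of the DNA polymerases and also serves DNA repair. It varied least over the leukocyte types: 381 CPM in Rag1-positive cells, 198 and 256 in cytotoxic T, 140.2 and 158 in other T, 148 and 209 in NK and 155 and 195 in B cells. Myeloid cells held levels in the same range, with 128 and 155 CPM in macrophages, 218 and 246 in classical monocytes, 213 and 163 in non-classical monocytes and 232 and 230.2 in neutrophils. Neutrophils thus carried more Pcna than cytotoxic T cells of library 1 and more than other T cells of either library, with no overlap of the intervals. Pcna made up 72.4% and 68.9% of the S-phase UMIs of neutrophils and 14.4% of those of Rag1-positive cells.

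Rrm1 and Rrm2 encode the large and small subunits of ribonucleotide reductase, which makes deoxynucleotides. Rrm1 stood at 164 CPM in Rag1-positive cells, 57.4 and 62.4 in cytotoxic T, 40.7 and 39.0 in other T, 33.7 and 37.4 in NK and 58.5 and 66.5 in B cells. Non-classical monocytes carried 85.6 and 131 CPM of Rrm1, more than any T or NK type of the same library but the Rag1-positive cells, while classical monocytes carried 14.4 and 25.5, macrophages 24.0 and 28.0 and neutrophils 16.1 and 15.4. At 1500 UMIs, 11.4% and 17.6% of non-classical monocytes held a UMI of Rrm1. Rrm2 took another course, with 145 CPM in Rag1-positive cells, 30.3 and 34.8 in cytotoxic T, 13.4 and 9.54 in other T, 8.61 and 5.78 in NK and 0 and 2.05 in B cells. Neutrophils carried 57.9 and 62.3 CPM of Rrm2 (95% intervals 53.2 to 62.8 and 55.9 to 69.3), the second highest leukocyte level of library 2 and the highest of library 1. Macrophages held 8.20 and 7.51 CPM, classical monocytes 3.11 and 8.27 and non-classical monocytes 1.49 and 1.57. The large subunit was thus raised in non-classical monocytes and the small subunit in neutrophils, each without the other.

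Tyms encodes thymidylate synthase and Pclaf a PCNA-binding factor. Tyms stood at 62.5 CPM and Pclaf at 90.8 CPM in Rag1-positive cells. Neither followed Rrm2 into neutrophils, where Tyms was at 0.302 and 0.545 CPM and Pclaf at 0 and 0.182. Pclaf reached 22.5 and 30.4 CPM in cytotoxic T, 15.004 and 9.66 in other T, 7.74 and 8.13 in NK, 0.454 and 0 in B cells, 4.17 and 6.77 in macrophages, 0.865 and 0.751 in classical and 6.70 and 0 in non-classical monocytes. Tyms ranged from 1.14 CPM in B cells of library 2 to 18.3 CPM in cytotoxic T cells of the same library over the lymphoid types other than Rag1-positive cells.

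**Figure D2:**
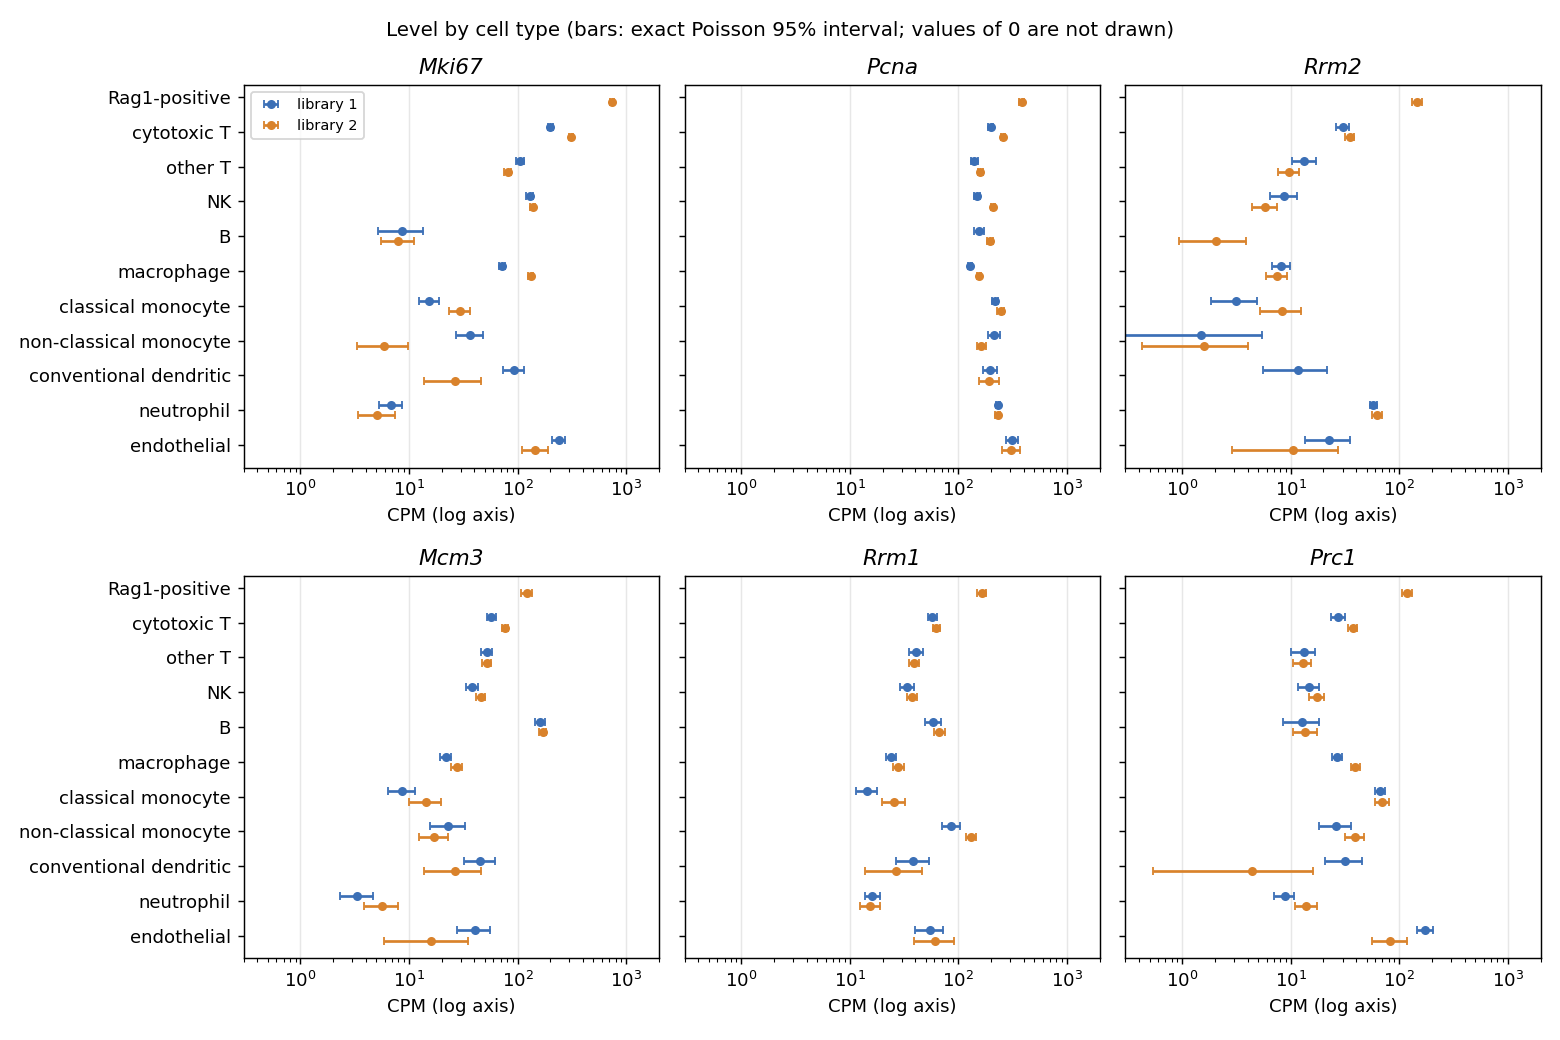
Levels of Mki67 and of 5 members whose order of cell types departs from it, in CPM on a log axis, by gated cell type and library, with exact Poisson 95% intervals as bars and values of 0 not drawn. Mki67 spans from 5.09 CPM in neutrophils to 739.9 CPM in Rag1-positive cells of library 2, whereas Pcna stays between 128 and 381 CPM everywhere, Rrm2 is high in neutrophils, Mcm3 in B cells, Rrm1 in non-classical monocytes and Prc1 in classical monocytes.

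The third role is chromatin. Mki67 encodes the Ki-67 protein that coats mitotic chromosomes and is the common marker of cycling cells, Top2a the topoisomerase that untangles replicated DNA, and Hist1h1b a replication-dependent linker histone. Mki67 stood at 739.9 CPM in Rag1-positive cells (95% interval 708 to 773), 201 and 311 in cytotoxic T, 106 and 81.2 in other T, 129.8 and 138 in NK and 8.62 and 7.97 in B cells. Macrophages held 72.1 and 132 CPM, classical monocytes 15.4 and 29.3, non-classical monocytes 36.5 and 5.90, conventional dendritic cells 92.0 and 26.6 and neutrophils 6.85 and 5.09. In library 2 the order ran Rag1-positive, cytotoxic T, endothelial-gated, NK, macrophage and other T cells. The intervals of endothelial-gated cells (109.8 to 189.7), NK cells (131 to 146) and macrophages (126 to 139) overlapped. At the other end, B cells, non-classical monocytes and neutrophils of library 2 overlapped one another between 3.30 and 11.1 CPM.

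Top2a stood at 536 CPM in Rag1-positive, 75.6 and 108 in cytotoxic T, 34.9 and 25.6 in other T, 40.1 and 34.3 in NK and 2.27 and 1.82 in B cells. Macrophages held 22.3 and 28.6 CPM, classical monocytes 8.998 and 21.4, non-classical monocytes 14.1 and 1.97 and neutrophils 0.706 and 2.54. Hist1h1b stood at 1073 CPM in Rag1-positive, 176 and 246 in cytotoxic T, 86.1 and 89.7 in other T, 109 and 73.7 in NK and 73.0 and 71.7 in B cells. The B cells thus carried as much Hist1h1b as the NK cells of library 2 while carrying 7.97 CPM of Mki67 against 138. Non-classical monocytes held 67.0 and 50.4 CPM of Hist1h1b, macrophages 31.3 and 50.2, classical monocytes 7.96 and 37.9 and neutrophils 0.605 and 3.45.

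The fourth role is cyclins and kinases. Cdk1 is the kinase that drives entry into mitosis, Ccna2 and Ccnb1 are cyclins that activate it, and Aurka and Plk1 act at the spindle poles. Cdk1 stood at 50.5 CPM in Rag1-positive, 25.4 and 28.4 in cytotoxic T, 13.8 and 8.72 in other T, 13.6 and 12.6 in NK and 0 and 2.50 in B cells. Macrophages held 10.3 and 12.5 CPM of Cdk1, classical monocytes 3.46 and 7.14, non-classical monocytes 6.70 and 1.57 and neutrophils 0.504 and 1.09. Endothelial-gated cells carried 109 and 68.9 CPM, the highest Cdk1 level of each library, with an interval that overlapped that of Rag1-positive cells in library 2. Ccnb1 stood at 65.6 CPM in Rag1-positive, 19.5 and 25.6 in cytotoxic T, 7.60 and 9.66 in other T, 9.12 and 11.5 in NK, 6.80 and 7.51 in B cells and 12.4 and 14.1 in macrophages. It was at 5.54 and 1.503 CPM in classical monocytes, 3.72 and 2.36 in non-classical monocytes and 0.605 and 0.363 in neutrophils. Ccna2 stood at 66.7 CPM in Rag1-positive cells and 14.5 and 16.1 in cytotoxic T cells, and at 4.93 and 4.48 CPM in other T, 4.65 and 5.09 in NK, 0.907 and 0 in B cells and 4.92 and 6.04 in macrophages. Classical monocytes held 0.692 and 2.25 CPM of it, non-classical monocytes 5.21 and 0 and neutrophils 0.302 and 0.363. Plk1 was the least abundant of the role, from 25.2 CPM in Rag1-positive cells to 0.302 CPM in neutrophils of library 1 and 0 in non-classical monocytes of library 1.

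Aurka was the exception of this role. Non-classical monocytes carried 38.7 and 30.3 CPM, classical monocytes 32.2 and 21.4, neutrophils 22.7 and 27.8 and macrophages 26.7 and 17.3. The lymphoid types carried 28.6 CPM (Rag1-positive), 13.7 and 14.8 (cytotoxic T), 13.2 and 13.3 (other T), 7.74 and 9.30 (NK) and 14.97 and 23.9 (B). Neutrophils and non-classical monocytes thus held more Aurka than cytotoxic T cells of the same library, with no overlap of the intervals, the reverse of Mki67. Classical monocytes and macrophages did so in library 1, and their intervals overlapped that of cytotoxic T cells in library 2. In library 2 the interval of non-classical monocytes (23.9 to 37.9 CPM) overlapped that of Rag1-positive cells (22.6 to 35.8 CPM).

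The fifth role is the chromosomal passenger complex, in which the kinase Aurora B (Aurkb) works with survivin (Birc5) and borealin (Cdca8) at centromeres and the spindle midzone. Cdca8 stood at 90.04 CPM in Rag1-positive, 26.5 and 34.9 in cytotoxic T, 11.9 and 14.8 in other T, 15.1 and 19.2 in NK and 11.3 and 9.79 in B cells. Macrophages held 18.2 and 24.5 CPM, classical monocytes 5.54 and 5.64, non-classical monocytes 13.4 and 14.2 and neutrophils 1.31 and 1.27. Birc5 stood at 102 CPM in Rag1-positive, 26.1 and 32.2 in cytotoxic T, 11.7 and 12.3 in other T, 11.2 and 10.6 in NK and 14.5 and 11.4 in B cells. Macrophages held 13.2 and 22.1 CPM of Birc5, classical monocytes 5.19 and 4.13, non-classical monocytes 14.1 and 4.72 and neutrophils 0.907 and 2.18. Aurkb stood at 54.6 CPM in Rag1-positive, 23.3 and 27.1 in cytotoxic T, 15.004 and 12.7 in other T, 18.6 and 13.5 in NK and 17.2 and 15.5 in B cells. It was at 7.16 and 10.6 CPM in macrophages, 4.85 and 9.39 in classical monocytes, 9.68 and 7.87 in non-classical monocytes and 0.302 and 1.63 in neutrophils. The complex as a whole summed to 247 CPM in Rag1-positive cells, 75.9 and 94.2 CPM in cytotoxic T cells and 38.5 and 57.2 CPM in macrophages.

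The sixth role is the spindle checkpoint and mitotic exit. Bub1 and Bub1b hold back the anaphase-promoting complex, Cdc20 activates it, and Ube2c is its ubiquitin-conjugating enzyme. Ube2c stood at 137 CPM in Rag1-positive, 44.7 and 53.4 in cytotoxic T, 10.9 and 15.7 in other T, 13.8 and 19.2 in NK and 2.27 and 1.59 in B cells. Macrophages held 18.6 and 21.4 CPM of Ube2c, classical monocytes 12.3 and 10.9, non-classical monocytes 8.19 and 1.97 and neutrophils 3.63 and 4.18. Bub1 stood at 94.2 CPM in Rag1-positive, 19.1 and 24.0 in cytotoxic T, 6.99 and 4.95 in other T, 10.8 and 10.8 in NK and 0.907 and 2.28 in B cells. Bub1 was at 9.99 and 11.3 CPM in macrophages, 0.865 and 3.38 in classical monocytes, 5.96 and 1.97 in non-classical monocytes and 0.403 and 0.727 in neutrophils. Macrophages held more Cdc20 than any lymphoid type but the Rag1-positive cells, with 10.7 and 15.6 CPM against 7.12 and 13.1 in cytotoxic T, 3.49 and 4.48 in other T, 4.47 and 9.01 in NK, 5.90 and 6.60 in B cells and 32.4 in Rag1-positive cells. The intervals of macrophages overlapped those of cytotoxic T cells in both libraries and that of B cells in library 1. Classical monocytes held 3.98 and 3.76 CPM of Cdc20, non-classical monocytes 0 and 0.787 and neutrophils 0.403 and 0.545. Bub1b, the member with the fewest UMIs, stood at 30.1 CPM in Rag1-positive cells and at 6.20 CPM or less in every other leukocyte type.

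The last role is the spindle and kinetochore. Stmn1 encodes stathmin, which destabilises microtubules, Cenpf and Cenpe are kinetochore proteins, Tpx2, Kif11 and Nusap1 build the spindle, and Prc1 bundles the midzone. Stmn1 was the most abundant member by UMIs, at 2282 CPM in Rag1-positive, 347 and 493 in cytotoxic T, 267 and 280.3 in other T, 198 and 268 in NK and 88.5 and 95.4 in B cells. Macrophages held 128 and 192 CPM of it, classical monocytes 29.1 and 59.0, non-classical monocytes 67.0 and 29.9 and neutrophils 10.4 and 18.7. Endothelial-gated cells carried 898 and 673 CPM. Cenpf stood at 283 CPM in Rag1-positive, 57.2 and 81.8 in cytotoxic T, 20.6 and 22.1 in other T, 25.5 and 39.5 in NK and 0.454 and 2.50 in B cells. Macrophages, with 42.2 and 52.3 CPM of Cenpf, stood above other T and NK cells in both libraries, and classical monocytes held 9.69 and 16.9, non-classical monocytes 11.2 and 0.787 and neutrophils 0.706 and 1.27. Tpx2 stood at 105 CPM in Rag1-positive, 27.4 and 41.5 in cytotoxic T, 10.1 and 11.2 in other T, 10.2 and 17.9 in NK, 2.72 and 5.69 in B cells and 18.5 and 28.6 in macrophages. Its levels in classical monocytes, non-classical monocytes and neutrophils were 4.50 and 5.64, 5.96 and 2.36 and 0.706 and 0.545 CPM. Cenpe, Nusap1 and Kif11 stood at 115, 120.2 and 99.5 CPM in Rag1-positive cells and, in the same order, at 42.9, 29.8 and 32.8 CPM in cytotoxic T cells of library 2. Prc1 was raised in classical monocytes, at 66.4 and 69.5 CPM (95% intervals 59.97 to 73.4 and 59.9 to 80.3), above macrophages at 26.8 and 39.2, cytotoxic T at 27.4 and 37.2, other T at 13.2 and 12.8, NK at 14.6 and 17.3 and B cells at 12.7 and 13.7 CPM. Rag1-positive cells held 118 CPM of Prc1, non-classical monocytes 26.1 and 39.0 and neutrophils 8.77 and 13.8. At 1500 UMIs, 11.2% and 8.57% of classical monocytes held a UMI of Prc1, while 1.41% and 2.0% held one of Mki67.

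Type against type, within a library, was compared over all genes that reached 20 CPM on either side, on the log2(CPM + 10) scale, with a 2-fold difference counted. There were no replicates, so these counts describe the libraries and carry no p-value. In Rag1-positive against other T cells of library 2, 33 of 34 members were 2-fold or more higher, against 10.9% of the 6039 genes tested, and no member was 2-fold lower, against 3.79%. Top2a stood at 536 against 25.6 CPM (log2 difference 3.94), Hist1h1b at 1073 against 89.7 CPM (3.44), Cenpf at 283 against 22.1 CPM (3.19) and Mki67 at 739.9 against 81.2 CPM (3.04). Pcna had one of the smaller differences, 381 against 158 CPM (1.22), and Aurka alone stayed under 2-fold, at 28.6 against 13.3 CPM (0.73). The median over members was 2.13 and that over all genes tested 0.27. The other genes of the pathway went the same way: 28 of 31 tested of the 40 further S-phase genes and 33 of 34 tested of the 50 further mitosis genes were 2-fold or more higher.

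In cytotoxic T against other T cells, 13 of 27 tested members were 2-fold or more higher in library 2 (3.0% of 5532 genes) and 2 of 25 in library 1 (2.19% of 5482 genes). Those 2 were Ube2c, at 44.7 against 10.9 CPM (log2 difference 1.39), and Cenpf, at 57.2 against 20.6 CPM (1.14). The library 1 count was 0 with a stricter gate and 10 with a pseudocount of 1 CPM. No member was 2-fold lower in either library (1.0% and 1.34% of genes). In library 2 the members included Mki67 at 311 against 81.2 CPM (1.81), Top2a at 108 against 25.6 CPM (1.73) and Hist1h1b at 246 against 89.7 CPM (1.36). Medians over the tested members were 0.67 and 0.95, against 0.04 and 0.07 over all genes. No helicase subunit reached a log2 difference of 1 in either library. The nearest was Mcm5 in library 2, at 36.6 against 15.6 CPM (0.87 with the pseudocount). Mcm7 was at 52.6 against 58.4 CPM in library 1 and at 55.9 against 54.3 CPM in library 2, with overlapping intervals.

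In macrophages against classical monocytes, 5 of 11 tested members were 2-fold or more higher in library 1 (5.71% of 5463 genes) and 6 of 15 in library 2 (4.71% of 5653 genes). In library 1 these were Mki67, Stmn1, Hist1h1b, Cenpf and Mcm6, led by Stmn1 at 128 against 29.1 CPM (log2 difference 1.82) and Mki67 at 72.1 against 15.4 CPM (1.69). In library 2 these were Mki67, Birc5, Stmn1, Cenpf, Tpx2 and Cdca8, with Mki67 at 132 against 29.3 CPM (1.86). Prc1 was the only member 2-fold lower in macrophages, in library 1, at 26.8 against 66.4 CPM (-1.06), where 4.85% of genes were 2-fold lower. In library 2 Prc1 was at 39.2 against 69.5 CPM, and no member was 2-fold lower (4.76%).

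How many cells carry these transcripts depends on depth, so each cell was thinned to 1500 UMIs and shallower cells were left out. This removed 282 of 851 Rag1-positive cells, whose median depth was 1679 UMIs, and at most 293 cells of any other type in a library. UMIs of 2 or more different members were found in 49.2% of 569 Rag1-positive cells (95% interval 45.0% to 53.4%). The shares were 23.7% and 32.6% of cytotoxic T cells, 19.0% and 22.3% of other T cells, 16.3% and 23.4% of NK cells and 29.9% and 33.9% of B cells. They were 13.2% and 16.5% of macrophages, 6.92% and 10.9% of classical monocytes, 13.3% and 17.7% of non-classical monocytes, and 5.62% and 8.88% of neutrophils. Mature neutrophils do not divide, but the neutrophil-gated cells here carried Pcna, Rrm2 and Aurka. Their share was not used as a background, and the part of RNA from outside the cell in any share was not tested. Without thinning the shares were 53.2% in Rag1-positive cells, 67.1% and 71.9% in cytotoxic T cells and 11.1% and 20.1% in neutrophils, whose median depths were 2226 and 2540 UMIs. The high share in B cells stood beside 8.62 and 7.97 CPM of Mki67, and 19.5% and 21.0% of B cells held 2 or more S-phase members against 1.46% and 1.42% with 2 or more mitosis members.

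A second count, added after the data were seen, took only the 20 mitosis and spanning members other than Stmn1. UMIs of 2 or more of these were found in 18.1% of Rag1-positive cells (95% interval 15.02% to 21.5%), 6.58% and 11.8% of cytotoxic T cells, and 4.84% and 6.48% of macrophages. The shares were 3.75% and 4.11% in NK cells, 2.91% and 3.10% in other T cells, 1.76% and 1.85% in B cells, 1.13% and 1.14% in classical monocytes and 0.207% and 0.567% in neutrophils. B cells thus moved from above the cytotoxic T cells (with overlapping intervals in library 2) to below the NK and other T cells, although the intervals of B cells overlapped those of other T cells in both libraries and those of NK cells in library 1. The cytotoxic T share of library 1 (5.20% to 8.19%) lay wholly below that of library 2 (10.3% to 13.5%), whereas the intervals of other T, NK and macrophage cells overlapped between libraries. Of 86 endothelial-gated cells in library 1, 16.3% passed this count (9.20% to 25.8%), and of 34 in library 2, 14.7% (4.95% to 31.1%). Keeping the called doublets moved none of the shares of cells with 2 or more of all the members beyond its interval. Without thinning, which kept all 851 Rag1-positive cells, 16.0% of them held 2 or more of the 20 mitosis and spanning members. The unthinned shares were 16.6% and 25.2% of cytotoxic T cells, 15.7% and 16.4% of macrophages and 28.9% and 22.2% of endothelial-gated cells. Rag1-positive cells thus did not stand first without thinning, where their median depth was 1679 UMIs against 4970 and 5677 in cytotoxic T cells.

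**Figure D3:**
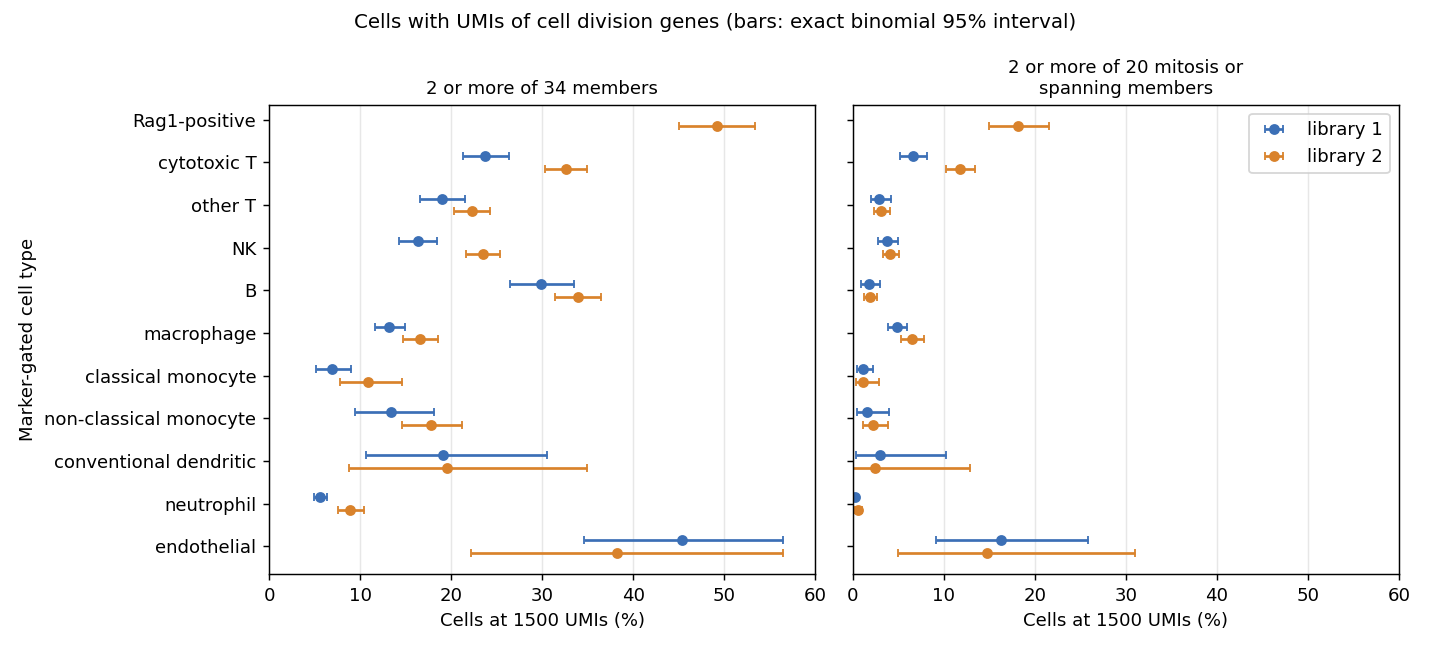
Share of cells, in percent at 1500 UMIs a cell, with UMIs of 2 or more of all 34 members (left) or of the 20 mitosis and spanning members (right), by gated cell type and library, with exact binomial 95% intervals as bars. Rag1-positive cells are at 49.2% on the left and 18.1% on the right, and B cells drop from 29.9% and 33.9% to 1.76% and 1.85%.

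Whether the transcripts lean to DNA copying or to mitosis was read from the S-phase share, which is the UMIs of the 13 S-phase members over those of the 13 S-phase and 16 mitosis members together. Rag1-positive cells stood at 63.8% (95% interval 62.9% to 64.7%). Cytotoxic T cells stood at 66.9% and 65.9%, NK cells at 72.7% and 70.6%, other T cells at 76.3% and 75.5%, and B cells at 84.7% and 84.2%. Macrophages stood lowest of the leukocyte types, at 54.3% (53.1% to 55.4%) and 54.0% (52.9% to 55.2%). With these members, both libraries thus gave the order macrophage, cytotoxic T, NK, other T, B, with no overlap of the intervals between neighbours within a library. Classical monocytes stood at 62.0% and 67.5%, non-classical monocytes at 74.4% and 79.0%, and neutrophils at 88.5% and 85.2%.

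Pcna made up 79.3% and 66.4% of the S-phase UMIs of classical monocytes and 43.2% and 42.0% of those of macrophages, against 14.4% in Rag1-positive cells. Without it, a setting added after the data were seen, macrophages stood at 40.3% and 40.5% and classical monocytes at 25.2% and 41.1%, whereas Rag1-positive cells stood at 60.1% and cytotoxic T cells at 60.04% and 58.8%. Other T cells stood at 70.4% and 68.4%, NK cells at 65.2% and 59.9%, and B cells at 80.3% and 78.8%. The intervals of cytotoxic T and NK cells of library 2 then overlapped. In classical monocytes the mitosis members summed to 168 and 178 CPM, of which Prc1 made up 66.4 and 69.5 CPM. Among the members, mitosis UMIs thus outnumbered S-phase UMIs in macrophages and classical monocytes once Pcna was left out and Prc1 kept. They also did so in conventional dendritic and endothelial-gated cells of library 1 (43.6% and 35.8%), but in none of the lymphoid types, with Hist1h1b kept. Hist1h1b made up 1073 of the 2259 CPM of S-phase members left in Rag1-positive cells without Pcna, beside 1501 CPM of mitosis members. In cytotoxic T cells of library 2 Hist1h1b made up 246 of 729 CPM, beside 510 CPM of mitosis members. Settings without Prc1 or without Hist1h1b were not run. With the fixed lists of 40 further S-phase and 50 further mitosis genes, none of them a member, the shares lay closer together: 58.6% in Rag1-positive cells, 56.1% and 54.9% in cytotoxic T cells and 55.4% and 53.7% in macrophages. Classical monocytes stood at 60.6% and 57.8%, so with these lists S-phase UMIs outnumbered mitosis UMIs in them and in macrophages of both libraries. NK cells stood at 56.8% and 53.6% with these lists. The order of macrophage, cytotoxic T and NK cells was therefore not kept: their intervals overlapped in library 1, and in library 2 NK cells lay below cytotoxic T cells without overlap.

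**Figure D4:**
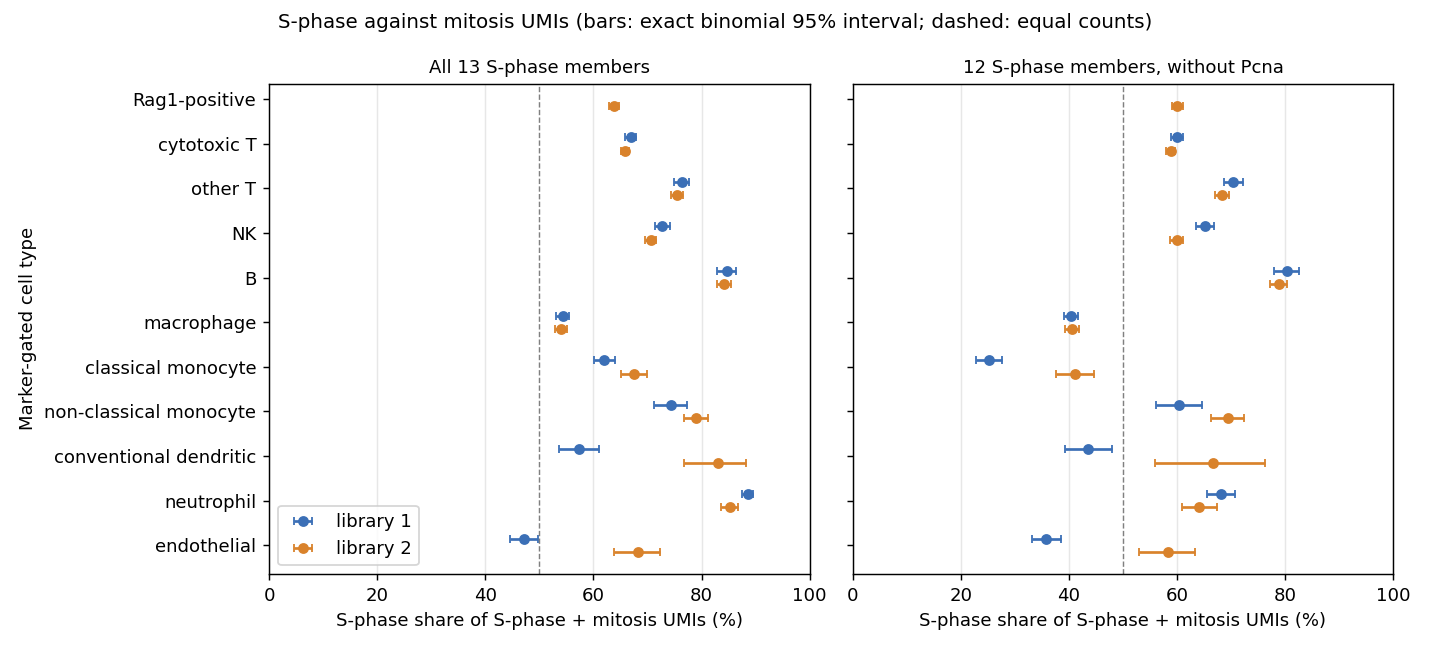
S-phase share of the S-phase and mitosis UMIs, in percent, with all 13 S-phase members (left) and without Pcna (right), by gated cell type and library, with exact binomial 95% intervals as bars and a dashed line at equal counts. On the left macrophages sit at 54.3% and 54.0%, and on the right they sit at 40.3% and 40.5%, to the left of the line, while B cells go from 84.7% and 84.2% to 80.3% and 78.8%.

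S-phase and mitosis transcripts were also followed cell by cell. Of 86 Rag1-positive cells with UMIs of 2 or more mitosis members at 1500 UMIs, 76.7% also held 2 or more S-phase members. The same share was 59.2% of 49 and 55.9% of 145 such cytotoxic T cells, and 24.6% of 65 and 29.3% of 75 such macrophages. It was 81.8% of 22 and 65.7% of 35 such other T cells and 55.6% of 36 and 39.2% of 51 such NK cells. Such B cells were few, and 1 of 10 and 7 of 20 held 2 or more S-phase members. Macrophages stood below the cytotoxic T, other T and NK cells of the same library, but the difference was not tested, nor was the part that the level of each gene has in it.

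To see which members go with other mitosis genes in each type, cells were called by 2 or more of the 50 further mitosis genes, none of them a member. They were set against cells with none, both at 1500 UMIs. Whether called cells were dividing was not tested. The call took 8.93% and 11.4% of B cells and 10.5% and 13.1% of NK cells. By contrast, 1.46% and 1.42% of B cells and 2.93% and 2.59% of NK cells held 2 or more mitosis members. In Rag1-positive cells 126 of 569 were called, and all 16 members with more than 3 UMIs in the 313 cells with none were higher in the called cells, against 39.9% of 7996 genes. Mki67 stood at 1714 against 19.2 CPM, Stmn1 at 4762 against 545 CPM, Hist1h1b at 2249 against 226 CPM and Pcna at 629.6 against 170.4 CPM. Top2a stood at 1487 against 2.13 CPM, the latter from 1 UMI. The median ratio over the 16 members was 11.2, from 2.48 for Aurka to 89.4 for Mki67. The called cells were also deeper before thinning, with a median of 7143.5 against 1827 UMIs.

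Cytotoxic T cells gave 20 of 20 and 27 of 27 members higher in called cells (49.2% and 54.6% of genes), with median ratios of 7.08 and 9.66. Other T cells gave 17 of 18 and 22 of 22 (51.8% and 56.4%), with median ratios of 3.94 and 10.9, and NK cells 16 of 18 and 21 of 22 (46.7% and 50.1%), with 5.41 and 4.04. Macrophages gave 19 of 20 and 22 of 23 (52.0% and 50.9%), with median ratios of 7.17 and 10.4. In macrophages of library 2, Mki67 stood at 835 against 27.4 CPM and Cenpf at 425 against 6.37 CPM, while Mcm3 stood at 47.2 against 15.9 CPM. In B cells only 11 of 18 and 11 of 23 members were higher in called cells (46.1% and 48.5%), with median ratios of 1.16 and 0.974, and in neutrophils 7 of 13 and 7 of 14 (42.5% and 50.6%), with 1.20 and 0.937. The median ratios of B cells and neutrophils were thus the lowest of the types compared, although Mki67 was higher in called neutrophils of library 2 (66.7 against 3.84 CPM, from 40 called cells). Mcm3 stood at 164 against 158 and 154 against 172 CPM (B cells), and Rrm2 at 75.0 against 62.4 and 33.3 against 69.2 CPM (neutrophils), each pair with overlapping intervals. In non-classical monocytes of library 2, 8 of 12 members were higher in called cells (46.6%). Rrm1 stood at 229.9 against 115 CPM there, from 29 called cells and with overlapping intervals.

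Within Rag1-positive cells, genes of receptor assembly and of the T-cell surface were also compared between called cells and cells with none. Over all genes, 39.9% were higher in called cells, so lower values there were common. Rag1 stood at 619 CPM in called cells (95% interval 512 to 742) against 1793 CPM (1674 to 1919) in cells with none. Dntt, which adds nucleotides at receptor gene junctions, stood at 667 against 882 CPM, with intervals that did not overlap, and Arpp21 at 513 against 976 CPM. The co-receptor genes stood at 503 against 1218 CPM (Cd8b), 1476 against 1855 CPM (Cd8a) and 138 against 351 CPM (Cd4), and Cd3e, a chain of the receptor complex, at 720 against 1137 CPM. Ptcra, which encodes the surrogate chain of the pre-T-cell receptor, stood at 217 against 313 CPM with overlapping intervals (156 to 294 and 265 to 368). Rag2, the partner of Rag1 in the recombinase, ran the other way, at 84.7 against 57.5 CPM with overlapping intervals. Because Rag1, Rag2, Dntt, Ptcra and Arpp21 also set the gate, cells low in all of them are missing from both sides. The gate was read before thinning, where called cells were deeper (median 7143.5 against 1827 UMIs). A shallow cell thus needed a higher share of these genes to pass, and the gate did not act alike on both sides. Its part in the lower values of called cells was not tested. Split by Ptcra, 28.0% of 289 cells with a UMI of it held 2 or more mitosis or spanning members (22.9% to 33.6%), against 7.86% of 280 cells without (4.99% to 11.7%). Mki67 stood at 996 CPM in all 395 cells with Ptcra and 387 CPM in all 456 without, whose median depths were 1844 and 1618.5 UMIs. The depths of the 289 and 280 cells were not compared. UMIs of Ptcra, and of Cd4 and Cd8b below, were read before thinning, where a deeper cell is more likely to show one. The part of depth in these splits was not tested. Cells with both Cd4 and Cd8b UMIs had an S-phase share of 55.0% (53.6% to 56.5%), against 70.3% (69.1% to 71.4%) for the rest, while their shares of cells with mitosis or spanning members were 19.4% and 17.1%, with overlapping intervals.

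Between libraries, types with 200 or more cells in each were compared gene by gene, with a log2 ratio of 0.5 or more on the CPM + 10 scale counted. The direction is library 2 over library 1 and has no known treatment behind it. In cytotoxic T cells all 27 tested members lay above 0, where 44.9% of 5418 genes did, but only Mki67 passed 0.5 upward (1.68% of genes) and none downward (1.62%). Mki67 stood at 201 CPM in library 1 and 311 CPM in library 2 (log2 ratio 0.61). The median over members was 0.27 and that over all genes -0.02. In macrophages 14 of 15 members lay above 0, where 57.6% of genes did, with a median of 0.26 against 0.03 (0.16 with a gate that asked for 1 more marker). Of these, 3 passed 0.5 upward (3.89% of 5405 genes) and none downward (1.63%): Mki67 at 72.1 and 132 CPM (0.79), Stmn1 at 128 and 192 CPM (0.55) and Hist1h1b at 31.3 and 50.2 CPM (0.54).

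In classical monocytes 5 of 8 members passed 0.5 upward (8.34% of 5203 genes) and none downward (3.57%), with a median of 0.59 against 0.05. They were Hist1h1b at 7.96 and 37.9 CPM (1.42), Stmn1 at 29.1 and 59.0 CPM (0.82), Top2a at 8.998 and 21.4 CPM (0.73), Mki67 at 15.4 and 29.3 CPM (0.63) and Rrm1 at 14.4 and 25.5 CPM (0.55). With a gate that asked for 1 more marker the median turned to -0.047, without a minimum level it was 0.20, and 270 of the 357 cells of library 2 sat at the gate's minimum. Non-classical monocytes had a median of -0.32 against 0.06. It was -0.78 with the stricter gate, and 199 of 260 and 423 of 541 cells sat at the gate's minimum. Mki67 stood at 36.5 and 5.90 CPM there (-1.55) and Stmn1 at 67.0 and 29.9 CPM (-0.95), both past 0.5 downward (5.11% of 5346 genes), and Rrm1 stood at 85.6 and 130.7 CPM (0.56), upward (7.76%). NK cells had a median of 0.12, with Hist1h1b alone past 0.5, downward (2.0% of 5553 genes, and 2.54% upward), at 109 and 73.7 CPM (-0.51). Other T and B cells had medians of -0.04 and 0.09 (0.04 and -0.046 with the stricter gate), with 0 of 12 and 0 of 10 members past 0.5 in either direction (1.56% up and 1.77% down in other T cells, 1.37% and 1.26% in B cells). In neutrophils only Pcna, Rrm2 and Aurka could be compared, and none passed 0.5 (5.47% up, 6.97% down).

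**Figure D5:**
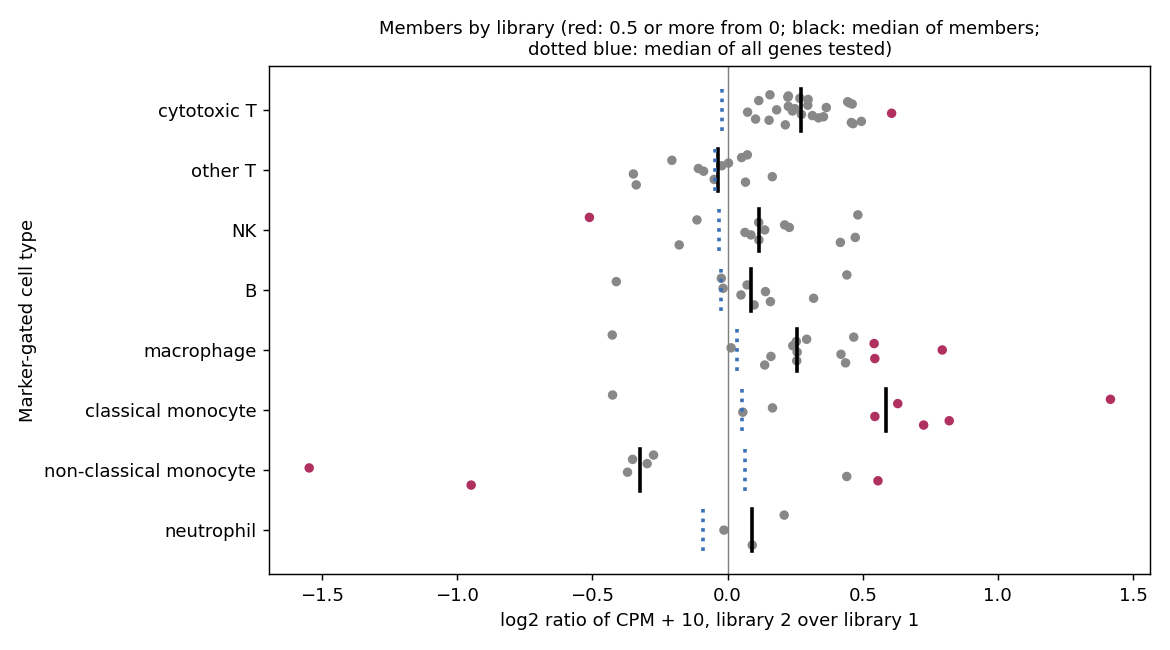
Log2 ratio of CPM + 10 in library 2 over library 1, 1 point for each tested member in each gated cell type, with the median of the members (black bar) and of all genes tested (dotted blue bar). The points of cytotoxic T cells all lie above 0 around a median of 0.27, those of non-classical monocytes mostly below 0, and red points mark members 0.5 or more from 0.

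Outside the list, the 5 genes whose level over the 21 combinations of type and library was most like the summed members, among 6027 genes with 50 CPM or more somewhere, were Cks1b (Pearson r = 0.970 on the log2(CPM + 10) scale), Kif15 (0.969), Sgo2 (0.967), Dscc1 (0.960) and Kifc1 (0.958). All 5 were highest in Rag1-positive cells, between 50.1 CPM for Dscc1 and 106 CPM for Sgo2. The 21 points share libraries and depth, so these values describe a likeness of pattern and no more.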

How the data were processed

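Gene expression was measured in 2 single-cell libraries of CD45+ cells. The authors deposited 1 matrix of raw UMI counts per gene and cell barcode, and the file headers name Cell Ranger 4.0.0 as its source. The genome build and the cell calling were not given in the sources used here. A deposited table of library names was left out, because it lists 33756 barcodes and shares only 111 of them, suffix included, with the matrix. Rows of 1 symbol were summed. Cells with 200 or more detected genes and at most 20% mitochondrial UMIs were kept, and doublets called with scrublet in scanpy 1.11.5 (expected 8%) were left out, 634 (4.54%) and 997 (6.46%) of them.

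Cell types were gated on fixed markers, with the number of markers needed set after the data were seen. Cells passing gates of more than 1 lineage (582 and 695) and cells passing none (1608 and 1735) were left out of type values. Counts were summed per type and library and divided by all UMIs of the type (CPM). Types needed 30 cells, and ratios between libraries 200 cells in each. Folds used a pseudocount of 10 CPM and genes with 20 CPM on either side, so the change of low genes is understated. Shares of cells used counts thinned to 1500 UMIs. With 1 sample per group and no link from barcode suffix to group there is no test and no p-value. The computations (Python 3.11.15, numpy 2.4.6, scipy 1.17.1) were tested on simulated data. As alternative scalings, factors of edgeR 4.0.16 (TMM) and DESeq2 1.42.0 were computed in R 4.3.3.

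The members, the lists and the genes named were chosen with earlier results of these data known. Named genes followed a rule: all members are accounted for, up to 4 members with the most UMIs in each role get values in each type and library, members that depart from their role are named, and outside the list the 5 genes most alike in pattern. The share from mitosis and spanning members, the S-phase share without Pcna, the unthinned shares, the runs without shared barcodes and the alternatives for counts of 2-fold members were added after the data were seen.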

Additional observations from a re-analysis of the deposited data

How the results depend on the processing

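No paired analysis was possible because each group has 1 sample and no result comes from a test. The share of cells with 2 or more members (49.2% in Rag1-positive cells, 23.7% and 32.6% in cytotoxic T cells, 13.2% and 16.5% in macrophages) depended on depth by construction. At 1000 UMIs it was 34.5%, 18.8%, 23.9%, 9.67% and 10.8%, and at 2500 UMIs 83.8%, 38.1%, 45.5%, 22.7% and 25.3%, in that order. Asking for 3 members gave 29.0%, 11.9%, 18.7%, 6.36% and 8.27%, and the mitosis and spanning members gave 18.1%, 6.58%, 11.8%, 4.84% and 6.48%. Without thinning, cytotoxic T cells were at 67.1% and 71.9% and macrophages at 53.4% and 55.6%. A stricter gate gave 36.3% for cytotoxic T cells of library 2. Rag1-positive cells, cytotoxic T cells and macrophages kept this order under each of these settings but the unthinned one, in which cytotoxic T cells stood first.

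The S-phase share moved to 58.6% (Rag1-positive), 56.1% and 54.9% (cytotoxic T) with the further S-phase and mitosis genes. With each gene weighted alike it was 58.2%, 62.2% and 60.7%, and 47.5% and 46.9% in macrophages. Without Pcna it was 60.1%, 60.04% and 58.8%, and 40.3% and 40.5% in macrophages. The stricter gate gave 64.6% for cytotoxic T cells of library 2.

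The median log2 ratio of library 2 over library 1 moved with a pseudocount of 1 CPM to 0.37 in cytotoxic T cells, 0.34 in macrophages and 0.84 in classical monocytes. With the stricter gate it was 0.37, 0.16 and -0.047 in these types, a reversal in classical monocytes, and -0.046 in B cells and -0.78 in non-classical monocytes. Without a minimum level it was 0.20 in classical monocytes. The cause was not tested. TMM and DESeq2 factors shifted classical monocytes by -0.13 and -0.12, and other types by less than 0.1. The count of members 2-fold higher in cytotoxic T than in other T cells of library 1 went from 2 to 0 with the stricter gate and to 10 with a pseudocount of 1 CPM.

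With 1 library behind each value, the spread between animals is unknown. Low members in small types (36 endothelial-gated and 42 conventional dendritic cells in library 2) rest on few UMIs, and differences there were not detectable at this depth.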

Other observations

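Genes that let cells into the cycle or hold them out of it, a list of 19 genes with no member among them, were also measured by cell type. The D-type cyclins, which open the G1 phase, were highest in different types. Ccnd1 stood at 515 and 572 CPM in endothelial-gated cells, 164 and 260 CPM in conventional dendritic cells and 141 and 200.2 CPM in macrophages, against 3.27 to 15.6 CPM in the T and NK types. Ccnd2 stood at 170.4 and 231 CPM in NK cells, 150.1 and 167 CPM in B cells and 46.7 and 44.2 CPM in macrophages. Ccnd3 stood at 268 CPM in Rag1-positive cells, 247 and 219 CPM in non-classical monocytes, 179 and 184 CPM in neutrophils and 164 and 161 CPM in cytotoxic T cells.

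Among the brakes, Cdkn1a, which encodes the inhibitor p21, stood at 934 and 785 CPM in neutrophils and 10.0 and 10.9 CPM in B cells. Cdkn1b, which encodes the inhibitor p27, was highest in Rag1-positive cells at 802 CPM, the type with the most cell division transcripts. The antiproliferative gene Btg2 stood at 4393 and 3361 CPM in neutrophils, 3686 and 4612 CPM in endothelial-gated cells and 3414 and 2867 CPM in non-classical monocytes. It stood at 2437 CPM in Rag1-positive cells and 721 and 923 CPM in macrophages. In Rag1-positive against other T cells, 5 of 17 tested genes of the list were 2-fold or more higher (10.9% of 6039 genes) and 1 lower (3.79%), with a median log2 difference of 0.78 against 0.27 over all genes.

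Among T cells, those with Cd4 and no Cd8a or Cd8b UMI carried 227 and 211 CPM of Mki67, and those with Cd8a or Cd8b and no Cd4 carried 158 and 250.5 CPM. Their shares of cells with 2 or more mitosis or spanning members at 1500 UMIs were 6.07% and 6.31% (Cd4) and 4.84% and 8.86% (Cd8). The intervals of both kinds of cell overlapped within each library.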
